A study of Mus musculus with 44 samples.

Results

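The enzymes and carriers of glycolysis, of pyruvate entry into the mitochondrion and of the citrate cycle were followed in single mouse two-cell embryos with and without maternal Dppa2 and Dppa4, a pair of nuclear proteins of early embryos. The set was fixed by gene name and has 38 members among the 35269 rows of the RNA-seq table: 2 carriers (Slc2a1, which takes up glucose, and Slc16a1, which moves pyruvate and lactate), 8 enzymes of preparatory glycolysis, 5 of its payoff phase, the 2 lactate dehydrogenase subunits Ldha and Ldhb, 7 genes of pyruvate entry and 14 of the citrate cycle with its cytosolic isozymes. Aldoa stood in 2 rows. The second of them (chr7:126800790-126809108, build GRCm38) held no read in any of the 44 embryos and is not used, so 38 rows were tested among 16294 that varied between embryos and passed the same filter.

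The 4 groups of embryos from C57Bl/6 natural matings were as follows. The 14 WT embryos (Dppa2/4+/+) came from Dppa2/4+/+ females and males. In the other groups the mothers were Dppa2/4m- females, in which Zp3-Cre removed both floxed genes in the growing oocyte, so that HET1, HET2 and HOM embryos all lacked the maternal store. The 15 HET1 embryos (Dppa2/4+/-) had Dppa2/4+/+ sires, whereas the 5 HET2 (Dppa2/4+/-) and 10 HOM (Dppa2/4-/-) embryos were littermates from Dppa2/4+/- sires. The authors told HET2 from HOM by the Dppa2 and Dppa4 transcripts themselves, so these transcripts are no independent check there. In WT the median level of Dppa2 was 336 RPM (reads per 1000000) and in HET1 it was 68.7 RPM, while no HOM embryo exceeded 4.15 RPM. Each of the 3 crosses gave 2 litters, with 10 and 4 WT embryos, 7 and 8 HET1 embryos, and 4 HET2 with 3 HOM in the first and 1 HET2 with 7 HOM in the second litter of heterozygous sires. Embryos of a litter share their parents, so a comparison of groups is also one of few litters, and p-values measure the spread between these embryos.

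Total reads ranged from 247667 to 3163026 per embryo, with medians of 1770010 in WT, 528166 in HET1, 1108889 in HET2 and 803369 in HOM, so that HET1 embryos were sequenced least deeply. All 10 two-cell markers and all 10 egg markers had reads in every group, whereas 3 of 5 sperm markers had none in any embryo. The summed two-cell markers had medians of 243 RPM in WT, 440 in HET1, 540 in HET2 and 168 in HOM. Single embryos ranged from 29.2 (HOM) to 1566 RPM (HET1), and the part of this spread in the members was not tested. Cumulus and granulosa markers summed to at most 26.7 RPM (WT), and of these Fshr had no read in any embryo. The summed egg markers (among them Zp3, Gdf9 and Bmp15, genes of the growing oocyte) differed between litters. Their median was 12837 RPM in the second HET1 litter, and 10246 and 9504 RPM in the HET2 and HOM embryos of the first litter of heterozygous sires, but 4033 RPM in the first WT litter, 4772 RPM in the first HET1 litter and 4514 RPM in the HOM embryos of the second litter of heterozygous sires. All 4 embryos of the second WT litter held reads of Ovgp1, the secreted oviduct glycoprotein, at 48.4 to 1498 RPM, against at most 61.4 RPM in any other embryo. The WT embryos j (first litter) and k (second litter) held reads of only 9403 and 9169 genes, beside a WT median of 12247, although they had 1367153 and 1065975 reads.

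As background, glycolysis splits glucose into pyruvate in the cytosol, lactate dehydrogenase interconverts pyruvate and lactate, and the mitochondrial pyruvate carrier and the pyruvate dehydrogenase complex feed pyruvate carbon into the citrate cycle. Early cleavage embryos of the mouse are known to live on pyruvate and lactate, and to take up the use of glucose later in cleavage. Ldhb encodes the H subunit that predominates in the oocyte, and Ldha the M subunit of tissues with active glycolysis.

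In WT embryos 11 of the 21 genes of pyruvate entry and the citrate cycle were read at a higher level than Pkm, the highest of the glycolytic enzymes, and 10 at a lower one. Levels were compared between genes as RPM per kilobase of merged exons, each given as a median over the 14 WT embryos. On this scale the highest was Pdhb, the beta subunit of pyruvate dehydrogenase, at 46.6 (range 14.3 to 69.2), followed by Ldhb at 41.6 (9.78 to 74.9) and Mdh2, the mitochondrial malate dehydrogenase, at 36.4 (7.19 to 48.5). Both subunits of the mitochondrial pyruvate carrier were abundant, with Mpc1 at 25.9 and Mpc2 at 20.4. Citrate synthase (Cs) reached 22.0, the succinyl-CoA ligase subunit Sucla2 17.4, and the pyruvate dehydrogenase subunit Pdha1 13.8. The isocitrate dehydrogenase subunits Idh3g, Idh3b and Idh3a were measured at 13.5, 10.3 and 6.13, and the dehydrogenases Dld and Ogdh at 12.9 and 10.5.

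The monocarboxylate carrier Slc16a1 was read at 9.63, whereas the glucose carrier Slc2a1 was read at 1.25. Among glycolytic enzymes pyruvate kinase (Pkm) led at 7.07, ahead of aldolase (Aldoa) at 6.11, phosphoglycerate kinase (Pgk1) at 4.74 and phosphoglycerate mutase (Pgam1) at 4.62. Triose phosphate isomerase (Tpi1) stood at 2.68, Ldha at 2.46, glucose phosphate isomerase (Gpi1) at 2.23, phosphofructokinase of liver type (Pfkl) at 1.47 and enolase (Eno1) at 1.36. Citrate cycle and related genes at low levels were Mdh1 at 1.92, Idh2 at 1.52, the pyruvate dehydrogenase subunit Dlat at 1.40, Idh1 at 1.05, the oxoglutarate dehydrogenase subunit Dlst at 0.505 and fumarase (Fh1) at 0.299, and the platelet-type phosphofructokinase Pfkp was read at 0.482. The hexokinases, which commit glucose to the cell, were nearly unread, with Hk2 at 0.193 and Hk1 at 0.0545. Suclg1 at 0.191, Pfkm at 0.163, Gapdh at 0.118, Aco1 at 0.0692 and pyruvate carboxylase (Pcx) at 0 closed the order. No member exceeded the next one in this order by more than the larger SD of the pair over embryos. That describes the spread and is no test of the order, so neighbouring positions should not be read as a ranking. The order also depends on the length used. Per kilobase of the longest coding transcript, an alternative added after seeing the data, Mpc2 came first at 146 (its merged exons span 7344 bases and that transcript 1025), followed by Pdhb at 119, Mdh2 at 88.9, Mpc1 at 56.1 and Ldhb at 50.0, and Pkm remained the highest glycolytic enzyme at 14.5. On that scale Ogdh, at 13.8, lay below Pkm, so the count of genes above Pkm also depends on the length.

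**Figure D1:**
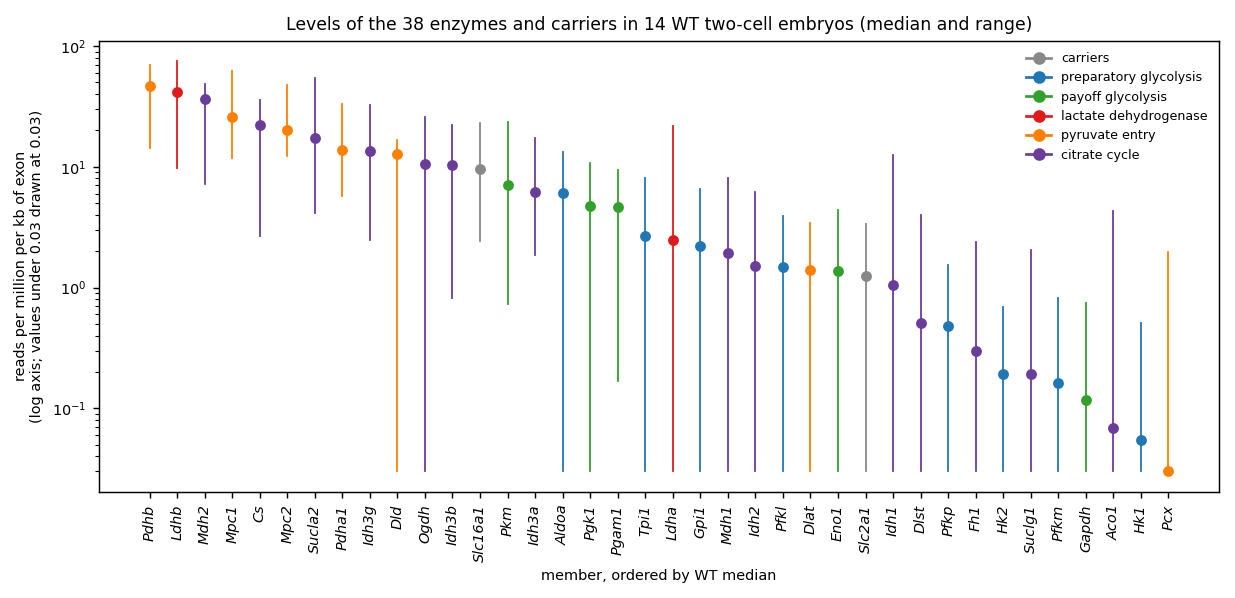
RPM per kilobase of exon (log axis) for the 38 members in WT embryos, ordered by the median, with points at the median and lines over the range of the 14 embryos (values near 0 are drawn at the foot of the axis). Pdhb, Ldhb and Mdh2 lead at 46.6, 41.6 and 36.4, and the hexokinases Hk1 and Hk2, Gapdh and Pcx lie near 0.

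Levels of several members depend on how reads were placed. The authors kept alignments with a mapping quality of at least 20, which drops reads that match several places. Stretches of at least 75 bases and 95% identity in other genes covered 88.0% of the Gapdh transcript, spread over 82 genes, 78 of them annotated as pseudogenes. The same search found 1 such gene for Ldhb (76.8% of its transcript), 1 for Pdhb (71.2%), 5 for Ldha (55.0%), 1 for Pkm (65.5%), 3 for Eno1 (85.6%), 4 for Pgk1 (68.8%), 7 for Gpi1 (54.6%), 1 for Pgam1 (43.1%), 2 for Mpc1 (27.4%) and 1 for Tpi1 (19.3%). It found none for the other members, Mpc2 among them. In all, 9 of the 15 glycolytic and lactate dehydrogenase members had such copies and 2 of the 21 of pyruvate entry and the citrate cycle. Levels of these genes, and with them the order of the roles, are therefore uncertain against those of other genes. The same filter applied to every embryo, but whether reads of transcribed copies were counted, and differed between embryos, was not tested. All 4 members called higher in HET1 below (Ldhb, Ldha, Tpi1 and Gapdh) had such copies, and Mpc2, the 1 called lower, had none. Reads of both strands were counted together, and exons of several members overlap a gene on the opposite strand, by 748 bases in Pfkp, 741 in Gpi1, 603 in Pdha1, 480 in Mpc1, 157 in Hk1, 105 in Slc2a1 and 5 to 68 bases in Gapdh, Mdh1, Tpi1, Aldoa and Idh3b. Exons of Pkm and Pfkm overlap a gene on the same strand by 767 and 341 bases. Reads in these stretches cannot be told apart.

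HET1 against WT asks how transcripts change when the maternal store is lost and a working paternal copy remains. HET1 embryos are also heterozygous themselves, so that maternal loss and zygotic dose cannot be told apart in this comparison. Levels within a gene are given as log2 RPM with a common floor of 1.86 (3.63 RPM), the value that the shallowest library gives to a gene without a read and to which lower values were raised in every embryo. Groups were compared with limma over all genes, with Benjamini-Hochberg adjustment. Of the 38 members, 4 were higher and 1 was lower in HET1 at an adjusted p under 0.05, against 4.66% of all 16294 genes called in either direction. Of all genes called, 55.1% were higher in HET1, but this share was 86.5% without the floor, 81.4% by voom on recovered reads and 39.8% after re-centring each embryo on its median, so the direction of the genes at large depends on the scaling. Both lactate dehydrogenase subunits rose, as did Tpi1 of preparatory glycolysis and Gapdh of the payoff phase, and Mpc2 of the mitochondrial pyruvate carrier fell. None of the 14 citrate cycle genes was called. Reads were counted over the exons of these genes, which lie at chr6:142490249-142507957 (Ldhb, minus strand), chr7:46841475-46855627 (Ldha, plus), chr6:124810586-124814296 (Tpi1, minus), chr6:125161715-125166467 (Gapdh, minus) and chr1:165460637-165481214 (Mpc2, plus) in GRCm38. Over all members 26 of 38 differences were above 0, with a median of 0.33, beside 59.4% of all genes above 0 and a median of 0.05. Of the members 36.8% had an unadjusted p under 0.05 beside 18.6% of all genes. A library is 1 whole embryo and its values are shares of that embryo's reads, so that more of these transcripts and less RNA of other genes cannot be told apart.

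The start regions of the 4 genes that rose are shown here for reference, as the 250 bases before and 50 bases after a RefSeq start (GRCm38.p6), 5′ to 3′ on the strand of the gene. Capitals mark the letters ACGTG, a form of the core read by hypoxia-inducible factors, or GGGCGG, the GC box read by Sp1, on either strand. The other form of that core, GCGTG, was not searched for and is not marked. The Ldha window (chr7:46845554-46845853, plus strand) is the upstream one of its 2 starts, the Ldhb window is chr6:142507908-142508207 (minus strand), that of Tpi1 chr6:124814109-124814408 (minus strand) and that of Gapdh chr6:125165724-125166023 (minus strand).
Ldha: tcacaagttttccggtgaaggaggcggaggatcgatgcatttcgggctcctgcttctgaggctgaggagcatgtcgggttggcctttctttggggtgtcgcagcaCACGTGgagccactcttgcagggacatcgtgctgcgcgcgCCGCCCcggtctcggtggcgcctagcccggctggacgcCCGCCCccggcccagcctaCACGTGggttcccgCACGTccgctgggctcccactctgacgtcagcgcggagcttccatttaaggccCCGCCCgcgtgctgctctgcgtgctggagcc
Ldhb: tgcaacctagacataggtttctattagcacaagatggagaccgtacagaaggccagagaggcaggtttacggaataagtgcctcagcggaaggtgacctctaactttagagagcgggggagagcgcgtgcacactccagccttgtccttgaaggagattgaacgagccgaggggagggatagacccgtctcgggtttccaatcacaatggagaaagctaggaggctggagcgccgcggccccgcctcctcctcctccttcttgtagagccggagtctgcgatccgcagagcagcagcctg
Tpi1: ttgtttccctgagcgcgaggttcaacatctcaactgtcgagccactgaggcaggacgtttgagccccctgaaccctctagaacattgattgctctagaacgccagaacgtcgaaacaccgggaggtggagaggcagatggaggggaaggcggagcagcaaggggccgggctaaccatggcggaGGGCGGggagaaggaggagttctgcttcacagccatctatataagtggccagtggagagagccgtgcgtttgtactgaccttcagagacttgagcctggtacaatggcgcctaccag
Gapdh: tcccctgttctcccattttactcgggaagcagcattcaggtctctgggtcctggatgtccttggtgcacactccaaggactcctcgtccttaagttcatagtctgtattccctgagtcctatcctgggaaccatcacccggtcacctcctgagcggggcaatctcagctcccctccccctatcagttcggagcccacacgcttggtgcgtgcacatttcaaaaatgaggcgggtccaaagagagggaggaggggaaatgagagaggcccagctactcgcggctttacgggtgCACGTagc

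Neither ACGTG nor GGGCGG was shared by the windows of all 4 genes. The Ldha window shown held 5 matches to ACGTG, of which 4 were both strands of 2 CACGTG palindromes, and 3 to GGGCGG, and the window of its other start held neither. Gapdh held 1 match to ACGTG, Tpi1 held 1 to GGGCGG, and the Ldhb window held neither. Among the 37 members with a start in the RefSeq table (all but Idh3a), 16 had ACGTG in at least 1 window, beside 21.8% of 27025 genes, and 28 had GGGCGG, beside 38.2%. Of the 15 glycolytic and lactate dehydrogenase members, 9 had ACGTG. A match to these letters is a description of the window and not a binding site.

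Ldhb, at 5.82 ± 0.72 in WT (SD, n = 14) and 7.55 ± 1.03 in HET1 (n = 15), showed the clearest separation. Its lowest, median and highest values were 3.94, 6.03 and 6.88 in WT, 5.55, 7.56 and 9.09 in HET1, and 5.46, 7.21 and 8.31 in HOM, and the 5 HET2 embryos read 6.38, 6.02, 8.67, 7.70 and 5.57. Thus 11 of 15 HET1 embryos lay above the highest WT embryo while the lower ones overlapped with WT. The difference was 1.73 (SE 0.35, adjusted p = 0.00369), a 3.32-fold higher level.

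Ldha rose as well, from a lower level in RPM. Its lowest, median and highest values were 1.86, 3.03 and 6.17 in WT, 1.86, 5.39 and 7.56 in HET1 and 2.02, 3.92 and 7.01 in HOM, with 4.26, 3.76, 6.19, 5.35 and 3.12 in HET2. Only 6 of 15 HET1 embryos passed the highest WT embryo, so that the groups overlapped. That embryo was k of the second WT litter, which held few genes and the most Ovgp1, and the next WT embryo read 4.85. The difference between HET1 and WT was 2.14 (SE 0.51, adjusted p = 0.00987).

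Tpi1, which interconverts the triose phosphates, had lowest, median and highest values of 1.86, 2.87 and 4.47 in WT, 2.02, 4.69 and 5.54 in HET1 and 1.86, 2.95 and 5.88 in HOM, with 4.63, 4.24, 3.69, 4.95 and 3.30 in HET2. In 9 of 15 HET1 embryos it exceeded every WT embryo, and it was 1.59 higher in HET1 (SE 0.42, adjusted p = 0.0195). Gapdh, which oxidises glyceraldehyde 3-phosphate, rested on few reads. It lay at the floor in all 14 WT embryos, where it had at most 3 reads, and above it in 9 of 15 HET1 embryos (highest 4.75), 4 of 10 HOM embryos (highest 3.35) and 2 of 5 HET2 embryos (3.71 and 2.67). The floored difference of 1.01 (SE 0.27, adjusted p = 0.0203) depends on where the floor is set and is no estimate of its fold change.

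Mpc2 moved the other way, from 7.30 ± 0.55 in WT to 6.46 ± 0.51 in HET1. Its lowest, median and highest values were 6.48, 7.22 and 8.45 in WT, 5.47, 6.47 and 7.16 in HET1 and 6.46, 6.64 and 7.47 in HOM, with 7.07, 6.85, 6.33, 6.50 and 8.02 in HET2. In 8 of 15 HET1 embryos it lay below the lowest WT embryo, and it fell by 0.85 (SE 0.19, adjusted p = 0.00814). Mpc1, the partner subunit, was read at 5.74 ± 0.62 in WT and 6.26 ± 0.82 in HET1 and was not called.

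**Figure D2:**
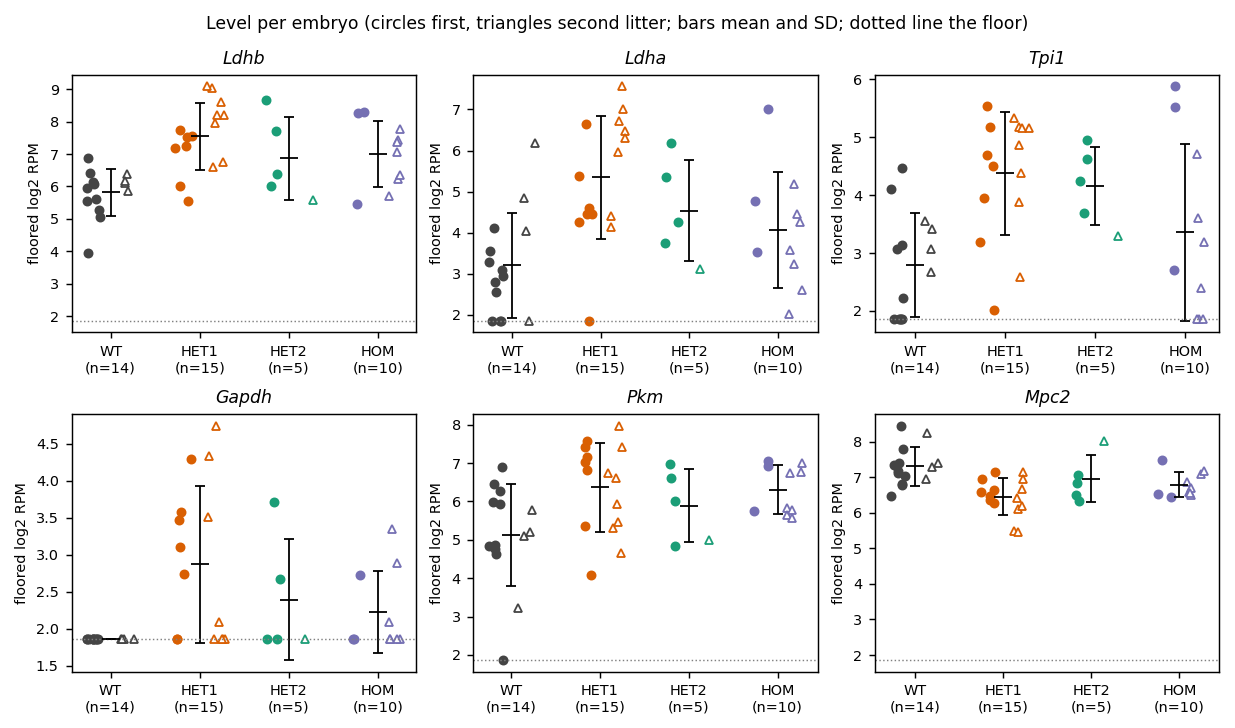
Floored log2 RPM per embryo of the 5 called members and Pkm in the 4 groups, with circles for the first and triangles for the second litter of each cross, bars for mean and SD, and a dotted line at the floor of 1.86. In Ldhb, 11 of 15 HET1 embryos lie above the highest WT embryo at 6.88, and in Gapdh all WT embryos lie at the floor.

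Other glycolytic genes had differences of similar size without passing the threshold. In HET1 against WT these were 1.24 for Pkm (SE 0.40, adjusted p = 0.0621), 1.19 for Eno1 (SE 0.42, adjusted p = 0.0954) and 1.09 for Pgam1 (SE 0.37, adjusted p = 0.0796). In the citrate cycle the values of Cs and Sucla2 were 0.82 (adjusted p = 0.116) and -0.94 (adjusted p = 0.135). Of 43 other genes of these and adjoining pathways that were tested, only G6pdx was called, the entry enzyme of the pentose phosphate pathway, with 4.15 in WT and 5.90 in HET1 (difference 1.76, SE 0.45, adjusted p = 0.0164).

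The HET1 calls rested on which litters and embryos entered. WT embryo j was the lowest WT embryo for Ldhb and Pkm, and j and k were the highest for Mpc2 (8.45 and 8.25), but without both the same 5 members were called (Ldhb 1.60, adjusted p = 0.00983, and Mpc2 -0.67, adjusted p = 0.0288). No member was called without the second HET1 litter (Ldhb 1.15, adjusted p = 0.157), without the first WT litter (Ldhb 1.42, adjusted p = 0.198), with litter as a random effect (Ldhb 1.67, adjusted p = 0.232) or with log2 total reads in the model (Ldhb 1.24, adjusted p = 0.218), and with embryos of at least 500000 reads only Ldha and Ldhb were called. Calls were lost over all genes too, of which 6, 289, 0 and 0 were called under the first 4 of these settings. The second HET1 litter had the highest egg markers of all litters and the highest Ldhb and Ldha, and the part of depth and of egg transcripts in these differences was not tested.

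In HOM against WT, embryos without either copy were compared with controls. No member was called by limma on the floored values (0.0184% of all genes) or by voom on recovered reads (0.0548%). At an unadjusted p under 0.05 there were 9 of 38 (23.7%, beside 14.6% of all genes). Glycolytic differences were mostly above 0 without passing the test. Of the 8 preparatory members 7 had differences above 0 and Pfkm lay at the floor in every embryo of both groups, and all 5 payoff members were above 0, with medians of 0.45 and 1.14, and over all members the median was 0.47 with 31 of 38 above 0, beside 0.09 and 64.4% for all genes. The median of the 14 citrate cycle genes was 0.43.

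The 5 largest differences in HOM were in glycolysis and lactate dehydrogenase. Aldoa, which splits fructose 1,6-bisphosphate, was read at 3.86 ± 1.02 in WT and 5.32 ± 0.83 in HOM (difference 1.46, SE 0.43, adjusted p = 0.134), with 6 of 10 HOM embryos above the highest WT embryo. For Gpi1 the difference was 1.27 (SE 0.49, adjusted p = 0.222), for Pgam1 1.20 (SE 0.41, adjusted p = 0.175), for Pkm 1.18 (SE 0.45, adjusted p = 0.215) and for Ldhb 1.17 (SE 0.39, adjusted p = 0.167). Without the WT embryos j and k Pkm was 0.75 (adjusted p = 0.479) and Ldhb 1.04 (adjusted p = 0.332). The 95% interval of Ldhb in all embryos, from 0.38 to 1.96, includes its HET1 value.

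HET2 embryos share the genotype of HET1 embryos but are littermates of HOM embryos. No member was called against WT by limma (0.0307% of all genes) or voom (0.0487%). By limma 4 had an unadjusted p under 0.05 (10.5%, beside 8.51% of all genes), and the median difference was 0.12. The largest were Slc2a1 at 1.50 (SE 0.56, adjusted p = 0.447), Tpi1 at 1.37 (SE 0.58, adjusted p = 0.499), Ldha at 1.33 (SE 0.71, adjusted p = 0.630), Idh3b at -1.28 (SE 0.60, adjusted p = 0.557) and Ldhb at 1.05 (SE 0.49, adjusted p = 0.559). These comparisons and the HET1 one share the WT embryos.

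**Figure D3:**
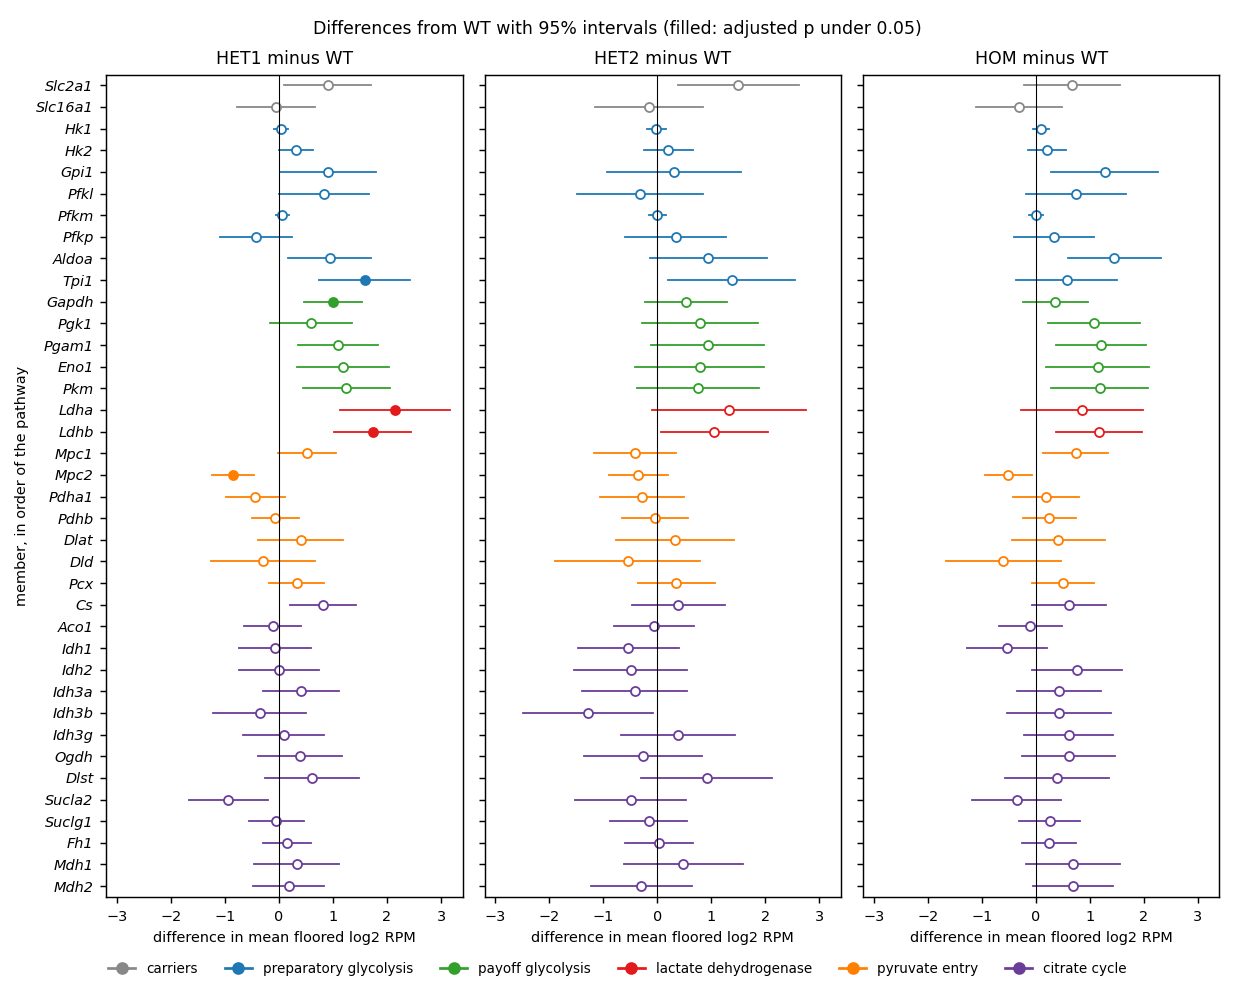
Difference from WT in mean floored log2 RPM for each member in HET1, HET2 and HOM, with 95% intervals from limma, coloured by role and filled where the adjusted p is under 0.05. Filled points appear in HET1 alone (Ldha, Ldhb, Tpi1, Gapdh and Mpc2), and the payoff members lie above 0 in every panel.

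That a call was made in HET1 and not in HOM does not show that the groups differ, so they were compared directly. None of the 38 members was called in HET1 against HOM by limma (0.0245% of all genes) or voom (0.0122%). The same held in HET1 against HET2 (0.0123% of all genes by limma and 0% by voom). At an unadjusted p under 0.05 there were 5 members in the former (13.2%, beside 11.3% of all genes) and 1 in the latter (2.63%, beside 4.21% of all genes). HET1 minus HOM was 1.28 for Ldha (SE 0.55, adjusted p = 0.398), 1.02 for Tpi1 (SE 0.46, adjusted p = 0.407), 0.65 for Gapdh (SE 0.29, adjusted p = 0.410), 0.56 for Ldhb (SE 0.39, adjusted p = 0.559) and -0.33 for Mpc2 (SE 0.21, adjusted p = 0.537). Larger than the last 3 of these were -0.79 for Idh3b (SE 0.47, adjusted p = 0.516), -0.77 for Idh2 (SE 0.41, adjusted p = 0.4659) and -0.75 for Pfkp (SE 0.36, adjusted p = 0.433). HET1 minus HET2 was largest for Pfkl at 1.15 (SE 0.57), Mpc1 at 0.94 (SE 0.37), Idh3b at 0.92 (SE 0.59), Idh3a at 0.83 (SE 0.48) and Ldha at 0.81 (SE 0.70), each with an adjusted p of 1. When the mean of the 3 groups from Dppa2/4m- females was set against WT, a contrast chosen after these values were seen, Ldhb alone among the members was called (1.32, SE 0.32, adjusted p = 0.0259), beside 1.56% of all genes, and 19 of 30 such embryos exceeded the highest WT embryo. Of the others the largest were Ldha at 1.44 (SE 0.46, adjusted p = 0.0899), Tpi1 at 1.18 (SE 0.38, adjusted p = 0.0934), Aldoa at 1.11 (SE 0.35, adjusted p = 0.0831) and Pgam1 at 1.07 (SE 0.33, adjusted p = 0.0845). Without the second HET1 litter, the first WT litter or the first litter of heterozygous sires, or with litter as a random effect, no member was called in this contrast either, nor without the WT embryos j and k (Ldhb 1.19, adjusted p = 0.0823).

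HOM and HET2 littermates were then compared with litter in the model, which sets zygotic genotype apart from the mother. No member of 37 tested was called by limma or voom (0.0132% of all genes), and 3 had an unadjusted p under 0.05 (8.11%, beside 4.61% of all genes). The largest differences, HOM minus HET2, were 1.55 for Pfkl (SE 0.66), 1.36 for Idh3b (SE 0.55), 1.05 for Aldoa (SE 0.57), 0.95 for Mpc1 (SE 0.42) and 0.86 for Idh3a (SE 0.60), each with an adjusted p of 0.871. Without the single HET2 embryo of the second litter (replicate e) Aldoa was 0.31, Mpc1 0.52 and Idh3a 0.097, while Pfkl was 1.41 and Idh3b 1.41. For Ldhb, HOM embryos of the first litter lay between 5.46 and 8.31 and overlapped with its HET2 embryos, between 6.02 and 8.67. In the second litter the single HET2 embryo at 5.57 lay below the 7 HOM embryos, between 5.70 and 7.76.

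Litters of the same cross also differed in members of the pathway. In HET1, 3 citrate cycle members were lower in the second litter and none was higher. These are 7.89% of the 38 members, where 15.0% of all genes were called, so calls were not more frequent among the members. After re-centring each embryo on its median 2 members were lower (Idh2 and Mdh2) and 3 higher (Dlat, Ldha and Ldhb), and the share of higher genes among all called went from 29.2% to 52.4%, so the balance of direction depends on the scaling. Mdh2 lay between 6.86 and 8.21 in the first litter (median 7.68) and between 5.20 and 7.34 in the second (median 6.14), a difference of -1.45 (SE 0.31, adjusted p = 0.00582). The beta subunit of the NAD-dependent isocitrate dehydrogenase, Idh3b, had medians of 5.38 and 3.91 (difference -1.69, SE 0.52, adjusted p = 0.0368). The mitochondrial NADP-dependent Idh2 was above the floor in 5 of 7 embryos of the first litter and in none of 8 in the second (floored difference -1.21, SE 0.34, adjusted p = 0.0265).

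Both lactate dehydrogenase subunits had higher means in the second HET1 litter, and whether they passed the threshold depended on the setting. Ldha had means of 4.52 and 6.07 (difference 1.55, SE 0.63, adjusted p = 0.112), and Ldhb of 6.97 and 8.06. Dlat, the acetyltransferase of pyruvate dehydrogenase, differed by 1.20 (SE 0.48, adjusted p = 0.102). Ldha and Ldhb were called on deposited values without the floor, with the filter at a mean of 3 and after re-centring, and Dlat after re-centring. Among 42 other pathway genes 3 were higher in the second litter (G6pdx, Pdhx and Suclg2) and 7 lower (Ldhc, Pdp2, Pfkfb3, Slc25a10, Slc25a11, Taldo1 and Tigar). Suclg2, the GTP-forming succinyl-CoA ligase subunit, rose from 3.68 to 5.76, and Pfkfb3, which makes the activator of phosphofructokinase, fell from 5.00 to 2.79. Egg markers had medians of 4772 and 12837 RPM in these litters and their part in these differences was not tested.

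In WT, 1 of 36 members tested was called between litters, beside 0.184% of all genes. Aco1, the cytosolic aconitase that doubles as an iron-responsive RNA-binding protein, was at or near the floor in the first litter (highest 2.04 of 10 embryos) and read 4.16, 4.28, 2.78 and 2.82 in the 4 embryos of the second, with no overlap (difference 1.63, SE 0.26, adjusted p = 0.0137). The same 4 embryos carried Ovgp1 at 1498, 211, 147 and 48.4 RPM, in the same order, and the part of oviduct RNA in the Aco1 reads was not tested. The next largest differences were -1.57 for Ogdh (SE 0.58, adjusted p = 0.275), -1.49 for Idh3b (SE 0.59, adjusted p = 0.300), 1.45 for Pfkp (SE 0.46, adjusted p = 0.220) and 1.43 for Ldha (SE 0.68, adjusted p = 0.398).

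Between the litters of heterozygous sires no member of 37 was called by limma, while 4.04% of all genes were. By voom none of 38 was called, while 6.73% of all genes were. By limma 4 members had an unadjusted p under 0.05 (10.8%, beside 20.4% of all genes). Second minus first litter was -1.69 for Tpi1 (SE 0.65, adjusted p = 0.161), -1.56 for Ldha (SE 0.68, adjusted p = 0.211), 1.18 for Dld (SE 0.65, adjusted p = 0.328), -1.08 for Aldoa (SE 0.54, adjusted p = 0.278) and 1.02 for Idh2 (SE 0.71, adjusted p = 0.439). Of the other pathway genes Pdp2, Sdhd and Taldo1 were higher and Suclg2 was lower in the second litter. Here the first litter had the higher egg markers, and their part in these values was not tested.

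**Figure D4:**
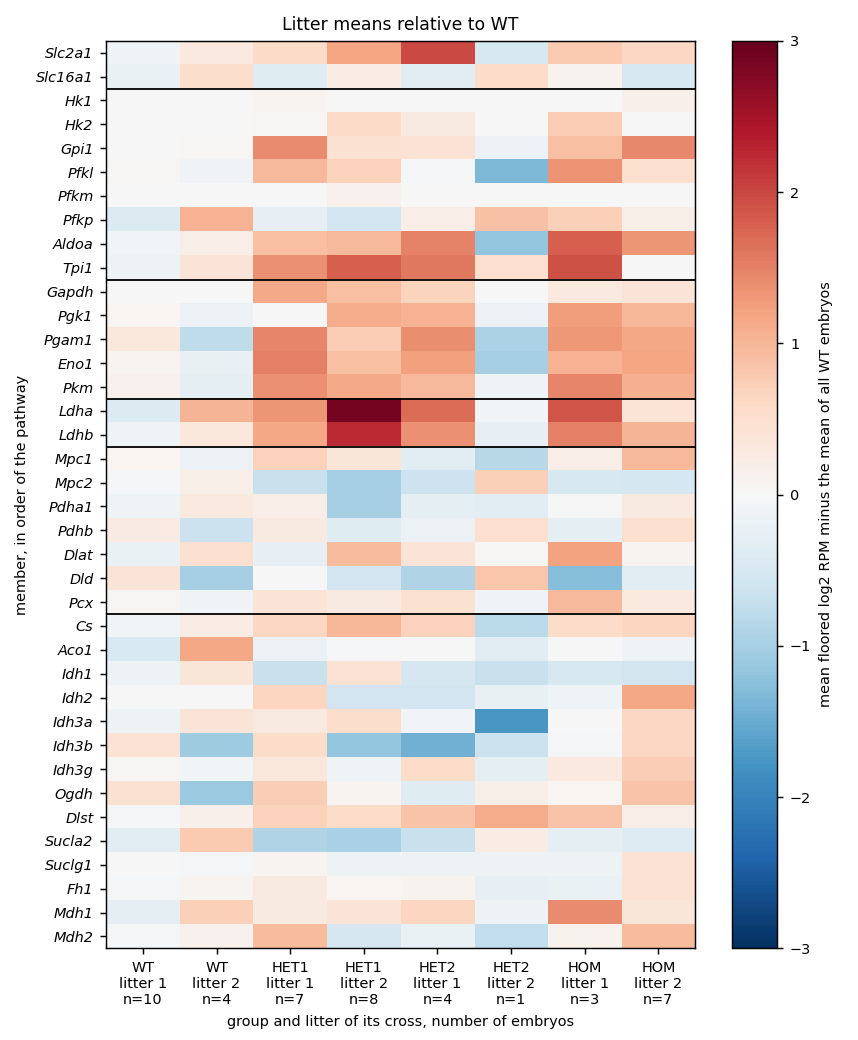
Mean floored log2 RPM of each member per group and litter minus the mean of all WT embryos (colour scale from -3 to 3), with members in order of the pathway. Ldha and Ldhb are highest in the second HET1 litter, and Mdh2 and Idh3b are lower there than in the first.

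Isozyme pairs were compared as the log2 ratio within each embryo, over 12 tests (4 pairs, 3 groups against WT, two-sided permutation of embryos, exact for HET2). None passed after adjustment. Ldhb exceeded Ldha in 43 of 44 embryos on the scale of RPM, all but WT embryo k, and the ratio was 2.61 ± 1.20 in WT, 2.20 ± 1.25 in HET1, 2.33 ± 0.15 in HET2 and 2.92 ± 1.17 in HOM. It ranged from -0.06 to 4.57 in WT, from 0.28 to 5.39 in HET1, from 2.12 to 2.48 in HET2 and from 1.30 to 5.04 in HOM, so that the groups overlapped. Its difference from WT was -0.41 in HET1 (permutation p = 0.371, adjusted p = 0.891), so that a change in the balance of the subunits was not detected beside the rise of both. Ldha lay at the floor in 4 of 14 WT embryos and in 1 of 15 HET1 embryos. There the ratio is only a lower bound, which includes the highest values of both groups (4.57 and 5.39). Mitochondrial Mdh2 exceeded cytosolic Mdh1 in every embryo, with a ratio of Mdh1 to Mdh2 of -3.96 ± 1.12 in WT, -3.81 ± 1.54 in HET1, -3.18 ± 0.55 in HET2 and -3.96 ± 1.45 in HOM. Mdh1 lay at the floor in 4 of 14 WT, 7 of 15 HET1, 1 of 5 HET2 and 1 of 10 HOM embryos. There the ratio is only an upper bound, so these means and SDs are partly set by the floor.

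The remaining pairs were close to the floor. Hk1 and Hk2 were both at it in 10 of 14 WT, 8 of 15 HET1, 3 of 5 HET2 and 5 of 10 HOM embryos, and the ratio did not go beyond -1.74 and 0.76 in any embryo. The ratio of Idh1 to Idh2 ranged from -2.15 to 3.25 in WT (median 0.00) and from -4.04 to 0.44 in HOM (median -0.61). That difference of -1.31 had the smallest p of the 12 (permutation p = 0.0363, adjusted p = 0.394) and did not hold after adjustment.

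**Figure D5:**
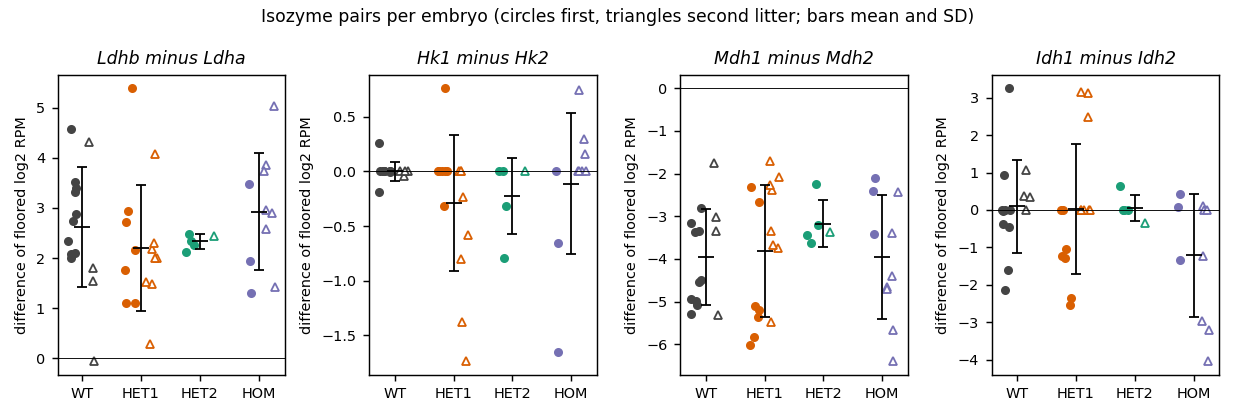
Difference in floored log2 RPM between the genes of each isozyme pair per embryo, in the 4 groups, with circles for the first and triangles for the second litter and bars for mean and SD. Ldhb lies above Ldha in 43 of 44 embryos and Mdh2 above Mdh1 in all, and the groups overlap in each pair.

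Summed over all 38 members, reads amounted to a median of 1303 RPM in WT (1014 to 1637), 1848 in HET1 (1048 to 2512), 1176 in HET2 (987 to 1969) and 1951 in HOM (1082 to 2353). Lactate dehydrogenase contributed 74.0 RPM in WT, 230.5 in HET1, 103 in HET2 and 162 in HOM, and the 5 payoff members 70.4, 170, 109 and 158 RPM in the same order of groups. The citrate cycle, the largest part in WT, HET1 and HOM, contributed 529 RPM in WT, 666 in HET1, 355 in HET2 and 755 in HOM. Pyruvate entry contributed 497 RPM in WT, 464 in HET1, 421 in HET2 and 514 in HOM. The ranges of the groups overlapped in each of these sums.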

How the data were processed

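Single two-cell embryos (44, in 4 groups) were sequenced by the authors with Smart-seq2 as 75 bp paired-end libraries, trimmed with Trim Galore 0.6.5 and cutadapt 2.3 and aligned to GRCm38 with HISAT2 2.1.0, per the submitters' processing notes and the study's methods. Alignments of mapping quality 20 or more were counted over mRNA, both strands together, by the SeqMonk pipeline. In the table deposited by the authors values are log2 RPM, where 0 reads stand as 0.9 read. Of all values, 99.9997% gave whole reads within 0.05 read. Depth, the total that RPM refers to, was 247667 to 3163026 reads per embryo, of which 67.9% to 84.8% lay in the rows of the table, and counting error is largest in the shallowest.

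Values were raised to a common floor (log2 of 1.86), and genes with a mean deposited log2 RPM of at least 0 were fitted with limma 3.58.1 (R 4.3.3, trended empirical Bayes), with 1 spread shared by the 44 embryos for comparisons of groups, and Benjamini-Hochberg adjustment over all genes (threshold 0.05). Isozyme ratios were tested by permutation of embryos (100000 resamples, exact for HET2). Near-identical copies were found with blastn 2.17.0.

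The members, lists and tests were chosen with earlier results of these data known. All 38 members are named with their WT level, with full statistics for those called and, where fewer than 5 were called, for the 5 with the largest differences, and the direct HET1 against HOM comparison also gives the members called in HET1. Alternatives were no floor, other filters, re-centring, array weights, litter as a random effect, means per group and litter as the replicates, a mating-number block and each litter left out. Voom, depth as a covariate, a minimum of 500000 reads, leaving out WT embryos j and k, the pooled maternal contrast, the direct HET1 comparisons, levels per transcript length and the ratio on recovered reads were added after seeing the data.

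Mating numbers were checked for pairing. Same-numbered litters deviated together between WT and HET1 (r = 0.446 over 6919 genes), but oppositely between WT and HOM (r = -0.437) and between HET1 and HOM (r = -0.759). The numbers were therefore not used as pairs in the main fits. Litters also differed in egg markers, so these correlations cannot tell whether same-numbered litters were handled together, and the labels do not say.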

Additional observations from a re-analysis of the deposited data

Results flagged for a closer look

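In groups of 5 HET2 and 10 HOM embryos, 9 of 72 member and group pairs held an embryo far from the others by Dixon's test at 95%, where chance gives about 1 in 20 of normally spread values. In 5 of the 9 all other embryos lay at the imposed floor, so that any value above it was far from them, and the number of such pairs cannot be read against chance. WT and HET1, with more than 10 embryos each, were not tested. Values are floored log2 RPM.

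In HOM, Suclg1 stood at 6.039 (54 reads) in embryo h with the other 9 at the floor, and the same embryo was highest for Hk1 at 2.606 (5 reads). Hk2 was highest in HOM embryo b at 3.518 (9 reads), and Mpc1 was lowest in HOM embryo a at 4.737 (65 reads), below the next embryo at 6.06.

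In HET2, single embryos stood above 4 others at the floor for Pcx at 4.107 (19 reads, embryo d), Fh1 at 3.325 (7 reads, embryo c), Idh1 at 2.490 (12 reads, embryo a) and Idh2 at 2.213 (8 reads, embryo e, the only one of its litter). Dlst was lowest in HET2 embryo b at 1.862 (3 reads), below the next at 4.02. Apart from Suclg1 and Mpc1 these values rest on at most 19 reads.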

How the results depend on the processing

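The 5 calls in HET1 against WT kept their direction under every setting run: Ldhb ranged from 1.15 to 2.24, Ldha from 1.12 to 2.87, Tpi1 from 1.17 to 1.99, Gapdh from 0.75 to 2.97 and Mpc2 from -1.03 to -0.66. The number of members called was 11 on deposited values without the floor (24.7% of all genes called, median difference of all genes 0.61), 2 with embryos of at least 500000 reads, and 0 with log2 total reads as a covariate, with litter as a random effect, with litter means as the replicates, without the first WT litter or without the second HET1 litter. The litter means were taken per group and litter, so HET2 and HOM littermates entered as separate units. The second HET2 mean was 1 embryo, and few degrees of freedom remain with such means. HOM and HET2 against WT gave 0 members under every setting.

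In the pooled contrast of embryos from Dppa2/4m- females, 9 members were called without the floor (7.21% of all genes), 6 of 24 with a mean of at least 3 (7.82%), 5 by voom (6.18%), 2 with array weights (2.99%), and 0 with the depth covariate, litter as a random effect, litter means, embryos of at least 500000 reads or without the WT embryos j and k (0.277% of all genes). Leaving out each litter gave 0 (first WT, second HET1, first heterozygous-sire), 2 (second WT) or 6 (first HET1, second heterozygous-sire). With mating number as a replicate block 6 members were called in HET1 (3.64% of all genes), 0 in HOM (0.0184%), 0 in HET2 (0.0430%) and 2 in the pooled contrast (1.14%). Whether the numbers pair the litters is not known.

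Between WT litters Aco1 was called under every setting that tested it, and with a mean of at least 3, which drops it, 0 members were called. Between HET1 litters, where 3 members were lower, 5 were called without the floor (15.1% of all genes) and 5 of 24 tested with a mean of at least 3 (34.5%), 2 higher and 3 lower in each, and 5 after re-centring (14.3%), 3 higher and 2 lower, where Idh3b had an adjusted p of 0.0952.

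The difference of Tpi1 between HET1 and HET2 changed sign after re-centring (-0.00018) and with the depth covariate (-0.11). Several isozyme ratios against WT changed sign, none of them past the threshold before. Without the floor Ldhb minus Ldha in HOM was -0.065, Hk1 minus Hk2 in HOM 0.24 and Mdh1 minus Mdh2 in HET1 -0.26, and on recovered reads these were -0.083, 0.32 and -0.28, with Idh1 minus Idh2 in HET1 at 0.11. Without the first WT litter Ldhb minus Ldha was 0.30 in HET1 and 0.43 in HET2, and Mdh1 minus Mdh2 was -0.45 in HET1 and -0.60 in HOM. Without the second WT litter Idh1 minus Idh2 was 0.064 in HET1 and 0.097 in HET2. Without the first HET1 litter Idh1 minus Idh2 in HET1 was 1.00 and 1 ratio passed the threshold (Hk1 minus Hk2 in HET1, permutation, adjusted p = 0.0430). In the 8 HET1 embryos left Hk1 lay at the floor throughout, and Hk2 lay above it in 5. Both genes lay at the floor in 10 of 14 WT embryos, so that this ratio is largely set by the floor and tells of no balance of isozymes. Without the second HET1 litter Hk1 minus Hk2 was 0.063 and Mdh1 minus Mdh2 -0.68. Without the first heterozygous-sire litter Hk1 minus Hk2 was 0.17 and Mdh1 minus Mdh2 -0.56 in HOM. Without the second, Ldhb minus Ldha in HOM was -0.37 and Idh1 minus Idh2 in HET2 0.059. The latter ranged from -0.19 to 0.059 without 1 HET2 embryo each, the highest without replicate e. The cause of these changes was not tested.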
